A study of Mus musculus with 6 samples.

Results

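A set of 10 genes that mark astrocytes in the mouse brain was followed through the cerebral cortex of mice aged 12 months: Aqp4, Slc1a2, Slc1a3, Slc4a4, Gja1, Gjb6, Aldoc, Aldh1l1, Acsbg1 and Sox9. They were taken by name, and all 10 were found among the 54532 genes of the table. Of these, 9 encode transporters, channels or enzymes, while Sox9 encodes a transcription factor. The groups were wild type (WT), with 3 libraries, and a knockout of Fam69c, a kinase-like protein of the secretory pathway, with 3 libraries that carry this label. Cortex of the whole tissue was used in both groups, and the labels name neither a strain nor how the knockout was made. The labels do not state that each library came from its own mouse, so every test measures the spread between libraries, which may be technical.

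Astrocytes clear the glutamate that neurons release, buffer potassium and protons, let water pass at the vessel wall through endfeet, and join into networks through gap junctions. They also store glycogen and break down glucose, and they hold much of the folate, serine and glutamine metabolism of the brain. The genes described here encode parts of these functions and are widely used to recognise the cell type. In tissue RNA, fewer astrocytes and less RNA per astrocyte cannot be told apart.

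Reads per library, recovered from the values, ran from 30935326 to 35065884. Fam69c itself read 2.03, 1.57 and 2.08 FPKM in WT and 1.54, 1.84 and 1.42 FPKM in the knockout-labelled ones, so its RNA does not separate the groups and directions below are between libraries as labelled. All 10 neuron markers checked were present, with summed levels of 1543 to 1574 FPKM in WT and 1488 to 1617 FPKM in the knockout-labelled libraries. Striatal projection neuron markers, summed, ran from 187.8 to 522.4 FPKM in WT and from 255.4 to 469.1 FPKM in the other group, and stood lowest in WT replicate 3 and knockout-labelled replicate 1. Blood markers ran from 109.5 to 125.7 FPKM and from 73.73 to 126.1 FPKM, and oligodendrocyte markers from 637.7 to 836.7 FPKM and from 667.4 to 845.4 FPKM. Of the 68 markers of other cell types, 0 were at 0 in all libraries, though the choroid plexus genes Kl, Folr1, Kcnj13 and Clic6 lay below the expression filter. Ttr, the transthyretin gene of the choroid plexus, read 2.10, 3.10 and 2.79 FPKM in WT against 8.90, 7.58 and 3.5 FPKM in the knockout-labelled libraries, with no overlap (log2 fold change 1.10, limma unadjusted p = 0.0101, adjusted p = 0.999). The part of these differences in the results below was not tested, except where a value without those libraries is given.

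The genes differed widely in level, with Aldoc and Slc1a2 highest and Sox9 lowest. FPKM, fragments scaled to gene length and library depth, puts genes of different length on one scale. Aldoc had a median of 232 FPKM over the 6 libraries (range 211.4 to 267) and Slc1a2 208.4 FPKM (198.1 to 216.5), with overlapping ranges. Slc1a3 at 44.16 FPKM (42.03 to 47.36) and Acsbg1 at 43.02 FPKM (39.12 to 46.76) were likewise not separated. Gjb6 stood alone at 22.25 FPKM (20.7 to 24.87). Below it came Slc4a4 (13.56 FPKM, 12.75 to 13.86), Aldh1l1 (12.9 FPKM, 11.34 to 15.14), Aqp4 (12.47 FPKM, 11.59 to 13.57) and Gja1 (11.57 FPKM, 11.34 to 12.61). Each neighbouring pair of these 4 overlapped in range, while every library of Slc4a4 lay above every library of Gja1. Sox9, at 9.657 FPKM and at most 10.07 FPKM, was the lowest. Summed over the 10 genes, the level ran from 597.6 to 650.2 FPKM in WT and from 575.7 to 644.5 FPKM in the knockout-labelled libraries.

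This order depended on the length that divides the reads. The deposited length of Gja1, 10257 bases, is the union of all exons of 8 transcripts in GENCODE M21, whereas its principal coding transcript has 2 exons and 3182 bases. Dividing the same reads by the principal transcript took Gja1 from 11.57 to 37.31 FPKM. That moved it from rank 9 to rank 5, above Gjb6 at 28.26 FPKM. Any reads from exons outside the principal transcript stayed in the count. Slc1a3, with a deposited length of 8537 bases against 4163, went from 44.16 to 90.55 FPKM and then lay above Acsbg1, at 53.83 FPKM, with no overlap. For Sox9, a gene with 1 annotated transcript of 4135 bases, the 2 lengths are identical. Which transcripts the cortex uses cannot be read from a table of genes. Differences between the groups within a gene are not touched by this choice.

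**Figure D1:**
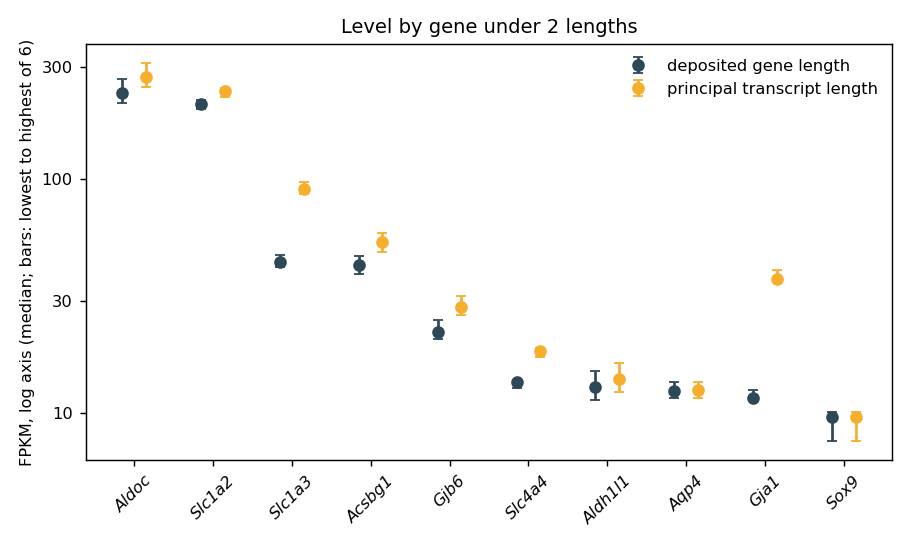
Median level of each gene over the 6 libraries (points) with the lowest and highest library (bars), in FPKM on a log axis, using the deposited gene length and the principal transcript length. Gja1 moves from 11.57 to 37.31 FPKM and Slc1a3 from 44.16 to 90.55 FPKM, while Sox9 keeps the same value.

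Between the groups, 0 of the 10 genes passed an adjusted p of 0.05 in limma (Benjamini-Hochberg adjusted p = 0.999 for each), where 0 of 15694 genes tested passed (0%). At an unadjusted p under 0.05 stood 1 of the 10, Aldh1l1, against 599 of all genes (3.82%). That count of the 10 was 0 without WT replicate 2 or without WT replicate 3. It was 2 without WT replicate 1, with sample weights, or without WT replicate 3 and knockout-labelled replicate 1 together. Over all genes it became 426 of 15737 tested without WT replicate 1, 525 of 15736 without WT replicate 2 and 1024 of 15674 without WT replicate 3. The all-gene count was 908 of 15728 without knockout-labelled replicate 1 and 2095 of 15672 without that library and WT replicate 3. With sample weights it was 1420 of 15694. The estimates were higher in the knockout-labelled libraries for 4 genes and lower for 6, where 48.03% of all genes tested were higher. The median log2 fold change of the 10 was -0.02 beside -0.0042 over all genes. With TPM or upper quartile scaling the split was 5 and 5, because the estimate for Aqp4, close to 0, changed sign. All 3 knockout-labelled libraries lay above all 3 WT libraries for 3 genes, Aldh1l1, Gja1 and Slc4a4, where 4.17% of genes did so, and below for 0, where 4.7% did so, 8.87% in all. The 95% intervals of the 10 genes reached from -0.40 to 0.39 log2 units at the outside, so a 2-fold difference lay beyond the interval of each gene.

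**Figure D2:**
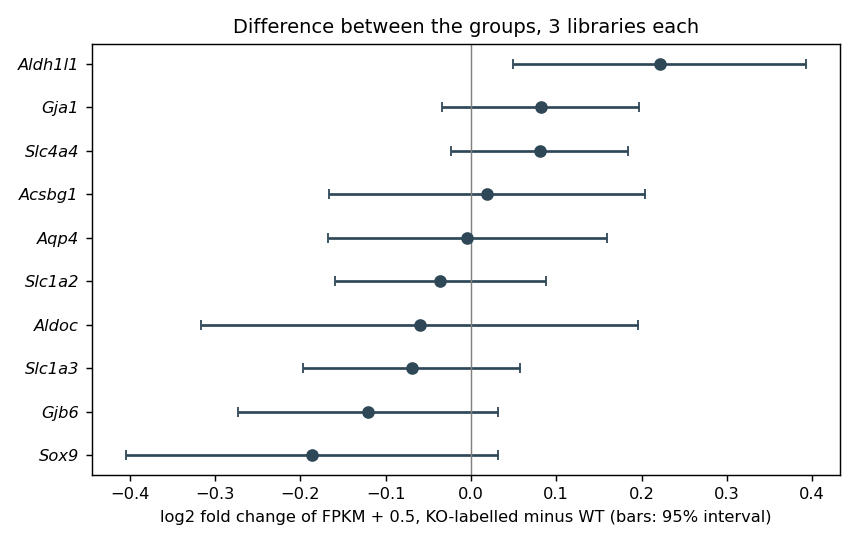
Log2 fold change of FPKM + 0.5, knockout-labelled minus WT, for each gene (points) with its 95% interval (bars), from 3 libraries per group. The intervals of 9 genes include 0, and that of Aldh1l1 runs from 0.05 to 0.39 before any adjustment for the number of genes.

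Aqp4 encodes aquaporin-4, the water channel of the astrocyte endfoot. It read 12.49, 11.59 and 13.57 FPKM in WT replicates 1 to 3 against 12.45, 13.05 and 11.98 FPKM in the knockout-labelled replicates (mm10 chromosome 18, 15389394 to 15403684, minus strand). The groups overlapped throughout, with the highest and the lowest value both in WT. The log2 fold change by limma was -0.0044 (95% interval -0.17 to 0.16). Its counts of 1808 to 2287 reads carry a counting error of at most 2.35%, less than the 7.88% coefficient of variation among WT libraries.

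The 2 sodium-driven glutamate transporters are encoded by Slc1a2 (GLT-1) and Slc1a3 (GLAST). Slc1a2 read 208.8, 207.3 and 216.5 FPKM in WT against 211.0, 208.0 and 198.1 FPKM in the knockout-labelled libraries, with overlap (chromosome 2, 102658659 to 102790784, plus strand). It was covered by 83567 to 94311 reads, the most of the 10 genes, and varied by 2.34% and 3.28% within the groups. The estimated log2 fold change was -0.04 (interval -0.16 to 0.09). Slc1a3 read 46.47, 43.07 and 47.36 FPKM in WT against 43.48, 44.83 and 42.03 FPKM in the other group (chromosome 15, 8634124 to 8710764, minus strand), with a log2 fold change of -0.07 (interval -0.20 to 0.06). For both genes WT replicate 3 was the highest library and knockout-labelled replicate 3 the lowest. The ratio of Slc1a2 to Slc1a3 FPKM within a library was 4.63 ± 0.167 in WT and 4.74 ± 0.108 in the knockout-labelled libraries (SD, n = 3 each, exact permutation p = 0.4, two-sided) and the ratios of the groups overlapped. With 3 against 3 libraries that test cannot give a p below 0.1.

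Slc4a4 encodes the electrogenic sodium bicarbonate cotransporter NBCe1, by which astrocytes move bicarbonate and regulate pH. It read 12.97, 13.36 and 12.75 FPKM in WT against 13.79, 13.76 and 13.86 FPKM in the knockout-labelled libraries (chromosome 5, 88886818 to 89239653, plus strand). All 3 knockout-labelled values stood above all 3 WT values, by 5.96% in the mean. By limma the log2 fold change came to 0.08 (standard error 0.04, interval -0.02 to 0.18, adjusted p = 0.999). The knockout-labelled values differed among themselves by 0.36% (coefficient of variation), less than the counting error of 1.51% that 4383 reads carry, so that spread understates the error of the measurement.

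RefSeq promoter windows, 250 bases before to 50 bases after a transcript start on GRCm38.p6, were examined for 8 of the 10 genes, in 10 windows. No window was examined for Aqp4 or Sox9, so their promoters are not described. Those of the 3 genes whose groups did not overlap are printed, to show how unlike they are, and capitals mark a match to 1 of 4 short motifs searched on both strands. The motifs were ACAAAG or ACAATG, bound by SOX factors, in 28.6% of 32851 windows of the same length, and TTGGCA, a nuclear factor I half-site, in 14.1%. The others were GGGCGG, the GC box, in 35.7%, and TATAAA, the TATA box, in 13.6%.
Slc4a4 promoter window, chr5:88887010-88887309, plus strand: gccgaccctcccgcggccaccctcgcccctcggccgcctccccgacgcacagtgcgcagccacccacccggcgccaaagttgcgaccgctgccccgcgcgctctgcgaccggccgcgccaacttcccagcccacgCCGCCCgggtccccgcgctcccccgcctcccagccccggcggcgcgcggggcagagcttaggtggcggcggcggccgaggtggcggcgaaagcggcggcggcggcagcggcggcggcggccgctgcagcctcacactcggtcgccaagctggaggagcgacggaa
Aldh1l1 promoter window, chr6:90550543-90550842, plus strand: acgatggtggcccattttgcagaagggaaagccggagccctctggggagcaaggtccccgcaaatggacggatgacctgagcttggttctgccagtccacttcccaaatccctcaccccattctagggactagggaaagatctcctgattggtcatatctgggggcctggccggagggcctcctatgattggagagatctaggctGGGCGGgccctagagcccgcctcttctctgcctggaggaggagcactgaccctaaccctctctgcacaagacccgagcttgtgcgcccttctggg
Gja1 promoter window, chr10:56377050-56377349, plus strand: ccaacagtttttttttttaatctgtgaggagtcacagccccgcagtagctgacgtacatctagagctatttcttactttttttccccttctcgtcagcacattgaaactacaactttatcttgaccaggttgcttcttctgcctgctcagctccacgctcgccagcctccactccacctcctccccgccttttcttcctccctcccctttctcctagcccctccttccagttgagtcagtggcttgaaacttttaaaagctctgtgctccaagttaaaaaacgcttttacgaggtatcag

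The Slc4a4 window held 50 CpG dinucleotides and 80% G and C, against a median of 7 CpG and 52.7% over all windows, and 1 GC box, read on the other strand. A second Slc4a4 start, 141148 bases from the start of the deposited gene model, had 3 CpG. Aldh1l1 had 9 CpG and 1 GC box, in a window 64366 bases from the deposited start, and Gja1 had 8 CpG and none of the 4 motifs. Among the 10 windows, which leave out Aqp4 and Sox9, 0 held a SOX match. A match or its absence describes these letters only.

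Gja1 and Gjb6 encode connexin 43 and connexin 30, the 2 main gap junction proteins of astrocytes. Gja1 read 11.41, 11.34 and 11.35 FPKM in WT against 12.61, 11.83 and 11.74 FPKM in the knockout-labelled libraries, 6.13% higher in the mean with no overlap (chromosome 10, 56377330 to 56402513, plus strand). The WT values lay closer together (0.319%) than the counting error of 1.67% would give, and knockout-labelled replicate 1 stood above the other 2 of its group. The log2 fold change, 0.08 (interval -0.03 to 0.20, limma adjusted p = 0.999), was 0.05 without knockout-labelled replicate 1. Gjb6 read 21.82, 24.87 and 24.16 FPKM in WT against 22.67, 20.70 and 21.62 FPKM in the other group (chromosome 14, 57123303 to 57133611, minus strand). Here WT replicate 1 lay among the knockout-labelled values, and the log2 fold change was -0.12 (interval -0.27 to 0.03).

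The ratio of the pair was compared after these values were seen. Gja1 divided by Gjb6 gave 0.523, 0.456 and 0.470 in WT and 0.556, 0.571 and 0.543 in the knockout-labelled libraries. All 3 of the latter were above all 3 WT ratios, at 0.557 ± 0.0142 against 0.483 ± 0.0352 (SD, n = 3 each). The two-sided exact permutation p was 0.1, the smallest that 3 against 3 libraries can give, and 2 such ratios were tested. A ratio within a library does not depend on library scaling.

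**Figure D3:**
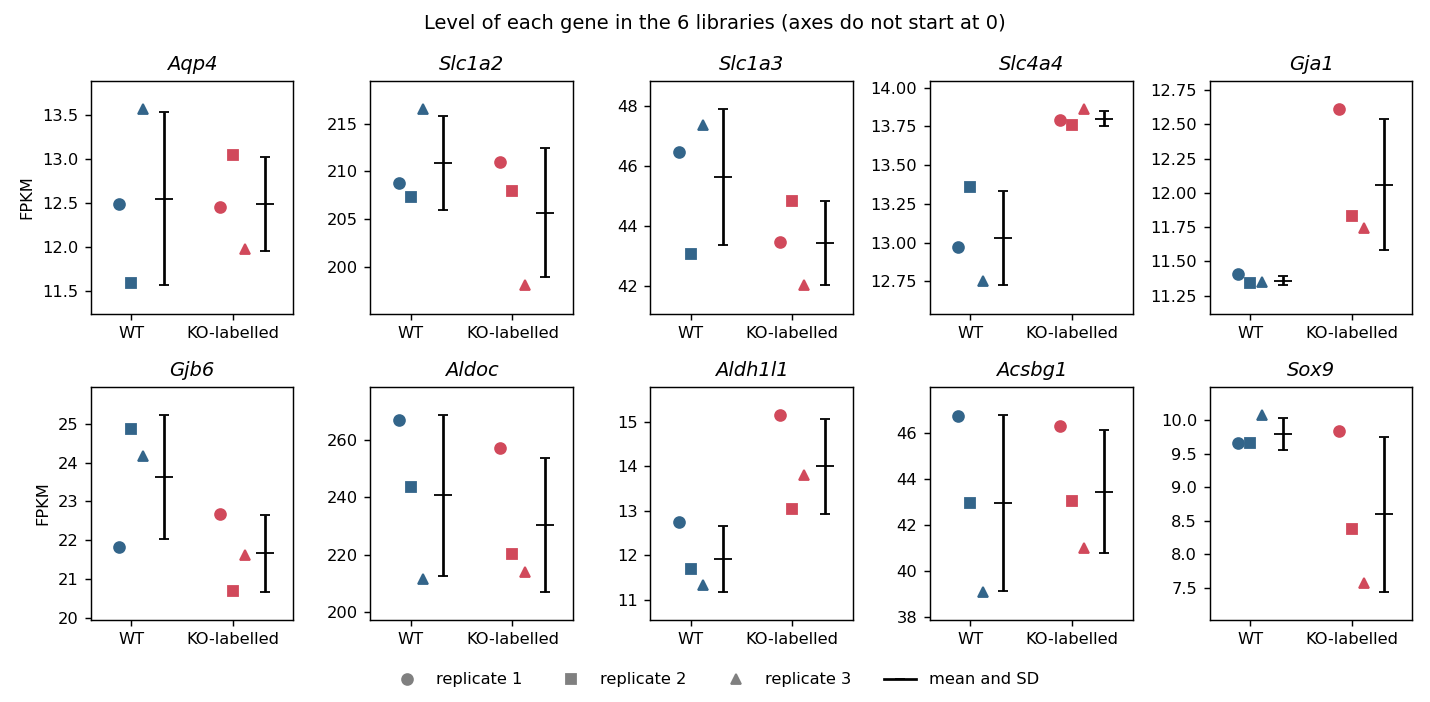
FPKM of each gene in every library, with WT in blue and knockout-labelled libraries in red, marker shapes for replicate numbers, and the mean and SD of each group in black. Slc4a4, Gja1 and Aldh1l1 have all red points above all blue points, while Gjb6 and Sox9 have 1 or more points within the range of the other group.

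A group of 3 enzymes completes the metabolic part of the set. Aldh1l1 encodes the cytosolic 10-formyltetrahydrofolate dehydrogenase, an enzyme of folate metabolism whose promoter is used to label astrocytes. It read 12.76, 11.69 and 11.34 FPKM in WT against 15.14, 13.04 and 13.80 FPKM in the knockout-labelled libraries, 17.3% higher in the mean (chromosome 6, 90486427 to 90600203, plus strand). The lowest knockout-labelled value, 13.04 FPKM, lay just above the highest WT value, 12.76 FPKM. The estimate was a log2 fold change of 0.22 (standard error 0.07, interval 0.05 to 0.39, limma unadjusted p = 0.0190, adjusted p = 0.999). It ranged from 0.13 to 0.27 over the alternative settings, the low end with WT replicate 3 and knockout-labelled replicate 1 left out together. An antisense gene, Gm15756, shares 499 exon bases (11%) with Aldh1l1, and its own level was at most 0.18 FPKM. Gm45901, a long noncoding RNA gene on the same strand, shares 105 exon bases (2.3%) and read 0.15 to 0.71 FPKM. The part of these genes in the Aldh1l1 level was not tested. Strand use in counting is not given in the sources used here.

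Aldoc encodes aldolase C, the brain form of a glycolytic enzyme, and Acsbg1 an acyl-CoA synthetase that activates long-chain fatty acids. Aldoc read 267.0, 243.7 and 211.4 FPKM in WT against 257.2, 220.4 and 214.0 FPKM in the knockout-labelled libraries (chromosome 11, 78322968 to 78327781, plus strand). Acsbg1 read 46.76, 42.97 and 39.12 FPKM in WT against 46.30, 43.06 and 41.01 FPKM in the other group (chromosome 9, 54604877 to 54661870, minus strand). Both genes were highest in WT replicate 1, next in knockout-labelled replicate 1, and lowest in WT replicate 3, so the groups overlapped fully. Aldoc varied by 11.6% within WT and 10.1% within the other group, where its counting error was at most 0.661%. The log2 fold changes were -0.06 for Aldoc (interval -0.32 to 0.20) and 0.02 for Acsbg1 (-0.17 to 0.20). Of the 2 libraries lowest in striatal markers, WT replicate 3 stood lowest and knockout-labelled replicate 1 second highest in both genes, and the part of striatal content in these levels was not tested.

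The profiles of the 2 enzymes over the 6 libraries were alike. Pearson's r of their log2 values was 0.925 (exact permutation p = 0.00833) and Spearman's rho 0.943 (p = 0.0167, exact permutation), which became 0.146 and 0.3 after Benjamini-Hochberg adjustment over the 45 pairs among the 10 genes. With the group means removed r was 0.980, and without WT replicate 1 and knockout-labelled replicate 1, the libraries farthest from the Aldoc median, it was 0.716. Slc1a2 and Sox9 had r = 0.861 (exact permutation p = 0.00972, adjusted 0.146) and rho = 0.943 (exact permutation p = 0.0167, adjusted 0.3). With the group means removed r was 0.830 for that pair. It was 0.423 without replicate 3 of either group, the libraries farthest from the Slc1a2 median, so the relation was weaker without them. Gja1 and Aldh1l1, both higher in the knockout-labelled libraries, had r = 0.906 (exact permutation p = 0.00556, adjusted 0.146) and rho = 0.886 (exact permutation p = 0.0333, adjusted 0.3), with r = 0.901 without knockout-labelled replicates 1 and 2 and 0.736 with the group means removed. No pair passed the adjustment.

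Sox9, a transcription factor of the SRY-box family that directs glial fate and stays on in adult astrocytes, read 9.66, 9.65 and 10.07 FPKM in WT (chromosome 11, 112782224 to 112787760, plus strand). In the knockout-labelled libraries it read 9.84, 8.37 and 7.57 FPKM. Replicate 1 of that group lay within the WT range, whereas replicates 2 and 3 lay below all of WT. Its log2 fold change, -0.19 (standard error 0.09, interval -0.40 to 0.03), was -0.28 without knockout-labelled replicate 1 (limma adjusted p = 0.785) and -0.10 without knockout-labelled replicate 3 (adjusted p = 0.999). Without knockout-labelled replicate 1 the groups did not overlap for 5 of the 10 genes, the same 3 higher and Gjb6 and Sox9 lower. Among those 5 libraries 22.5% of all genes did not overlap. Without both knockout-labelled replicate 1 and WT replicate 3, Aldoc joined the lower genes and the count was 6, against 47.3% of all genes.

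**Figure D4:**
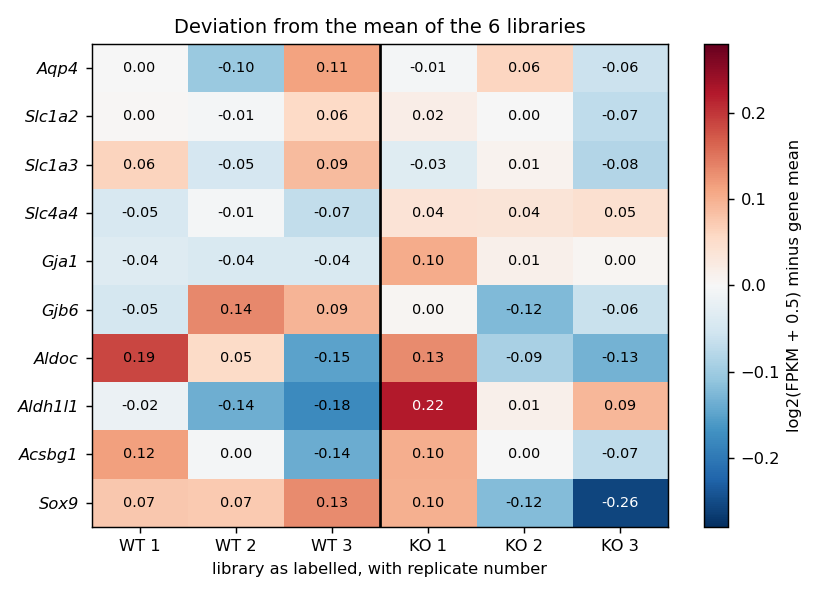
Deviation of log2(FPKM + 0.5) from the mean of the 6 libraries for each gene (rows) and library (columns), with the value in each cell. Aldoc and Acsbg1 share a pattern that runs across both groups, Aldh1l1 spans -0.18 to 0.22, and Sox9 reaches -0.26 in knockout-labelled replicate 3.

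Averaged over the 10 genes, the log2 deviations came to 0.03, -0.01 and -0.01 for WT replicates 1 to 3 and to 0.07, -0.02 and -0.06 for the knockout-labelled libraries. Of 6993 other genes that averaged 5 FPKM or more and had at least as much spread, the nearest to this profile over the 6 libraries was Map4, a microtubule-associated protein gene, with a root mean square difference of 0.0082 log2 units. It was followed by Dync1li1 (0.0154), Ubqln1 (0.0155), Phlpp1 (0.0157) and Ap3s2 (0.0161). This likeness is a description of 6 libraries.

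A further 8 lists held 93 genes of the same functions and of astrocyte identity, 89 of them above the filter, and 0 passed limma's adjusted p of 0.05. At an unadjusted p under 0.05 stood 10 of the 89 (11.2%, against 3.82% of all genes), 3 higher and 7 lower in the knockout-labelled libraries. The groups did not overlap for 15 (16.9%, against 8.87% of all genes), 8 higher and 7 lower. Of the 89, 48 read higher and 41 lower, where 48.03% of all genes tested read higher. The medians of the lists ran from -0.06 to 0.11 log2 units. With 1 library left out in turn, the medians of the gap junction and transcription factor lists kept their sign, and those of the other lists did not. Both directions occurred among genes that are used as markers of the same cell type.

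Among 11 glutamate and GABA clearance genes, 7 read higher and 4 lower, with a median of 0.03. Glul, the glutamine synthetase that converts the glutamate carried in by Slc1a2 and Slc1a3, read 495 ± 36.6 FPKM in WT against 452 ± 39.3 FPKM in the knockout-labelled libraries, with overlap. Grm3, a metabotropic glutamate receptor gene, read 15.3 ± 1.79 and 18.6 ± 1.33 FPKM, with all 3 knockout-labelled libraries above WT. Slc25a18, a mitochondrial glutamate carrier, read 39.2 ± 1.58 and 34.0 ± 4.6 FPKM.

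The potassium, water and endfoot list, the partners of Aqp4, had 10 of 12 genes above the filter, 3 higher and 7 lower, with log2 fold changes from -0.05 to 0.09. Kcnj10, the inward rectifier channel Kir4.1, read 34.0 ± 2.09 and 35.2 ± 5.39 FPKM. Kcnj16, which encodes the partner channel Kir5.1, read 6.09 ± 0.404 and 6.50 ± 0.285 FPKM. Trpv4 and Aqp9 lay below the filter.

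Other gap junction genes read higher for 5 of 5 tested, with a median of 0.11 and overlapping groups for each. Leaving out 1 library moved that median to 0.05 without knockout-labelled replicate 1, 0.06 without WT replicate 1 and 0.20 without knockout-labelled replicate 2. Gjb2, encoding connexin 26, read 3.31 ± 0.716 FPKM in WT against 3.72 ± 0.480 FPKM in the knockout-labelled libraries, and the junction scaffold gene Tjp1 12.0 ± 0.671 and 12.8 ± 0.799 FPKM. Glycogen, lactate and lipid genes split 7 and 7 with a median of 0.01. Slc2a1, the glucose transporter of endothelium and glia, read 25.3 ± 2.62 and 22.6 ± 1.70 FPKM, and Pdk4, a kinase that restrains pyruvate dehydrogenase, 2.49 ± 0.0791 and 2.78 ± 0.198 FPKM.

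The folate, serine and glycine list, which holds the metabolic neighbours of Aldh1l1, read higher for 7 of 8 tested genes, with a median of 0.03. Slc7a10, a glycine and serine transporter of astrocytes, read 9.73 ± 0.563 FPKM in WT against 11.8 ± 1.35 FPKM in the knockout-labelled libraries, with no overlap (log2 fold change 0.26). Phgdh, the enzyme that opens serine synthesis, read 22.2 ± 0.611 and 24.5 ± 1.53 FPKM (log2 fold change 0.14), also with no overlap. With WT replicate 3 and knockout-labelled replicate 1 left out together the list median was -0.03. It was -0.0060 without WT replicate 3 alone, 0.01 without knockout-labelled replicate 1, 0.06 without WT replicate 2, 0.06 without knockout-labelled replicate 3 and 0.08 without knockout-labelled replicate 2. Bicarbonate and acid handling genes split 3 and 3, with Car2, a carbonic anhydrase abundant in oligodendrocytes too, at 78.6 ± 9.09 and 68.4 ± 9.07 FPKM and the anion exchanger gene Slc4a2 at 3.44 ± 0.0932 and 3.71 ± 0.130 FPKM.

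Transcription factors of astrocytes, the company of Sox9, read lower for 9 of 15 genes, with a median of -0.06, which was -0.10 without knockout-labelled replicate 1 and -0.04 without knockout-labelled replicate 2. The groups did not overlap for 3 of the 15, each lower, where 4.7% of all genes were lower in this way and 8.87% did not overlap in either direction. Hes5, a Notch target, read 7.29 ± 0.641 FPKM in WT against 5.91 ± 0.261 FPKM in the knockout-labelled libraries (log2 fold change -0.28). Id3, an inhibitor of DNA binding, read 14.9 ± 1.28 and 11.8 ± 1.28 FPKM (log2 fold change -0.32). Of 20 other astrocyte markers, 10 read higher and 10 lower. Htra1, a secreted protease, gave 69.4 ± 6.04 and 55.5 ± 1.04 FPKM (log2 fold change -0.32), and the receptor gene Fgfr3 20.8 ± 1.17 and 17.5 ± 0.598 FPKM (log2 fold change -0.24), both with no overlap. Gfap, the intermediate filament of astrocytes, read 36.6 ± 1.96 and 31.7 ± 3.0 FPKM with overlap, and the calcium-binding S100b 57.7 ± 5.05 and 57.1 ± 6.11 FPKM. None of these passed limma's adjusted p, at 0.999 each.

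Markers of other cell types were described beside these. In 8 lists of 68 genes, 64 of them tested, 0 passed, 2 (3.13%, against 3.82% of all genes) stood at an unadjusted p under 0.05 and the groups did not overlap for 3 (4.69%, against 8.87%). The 2 were Ttr, 2.5-fold higher in the mean, and the haemoglobin gene Hba-a2, which read 7.63, 7.08 and 4.70 FPKM in WT against 5.44, 2.61 and 2.22 FPKM in the knockout-labelled libraries, with overlap (log2 fold change -0.89, limma unadjusted p = 0.0245, adjusted p = 0.999). Hba-a2 has a near-identical copy, Hba-a1, so its reads may be split between them. Their part in the results was not tested. List medians ran from -0.14 for 5 blood genes to 0.04 for oligodendrocyte genes, with neurons at -0.02 and microglia at -0.05. Members and lists were picked with earlier results of these data known, so these shares describe the lists and test nothing.

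**Figure D5:**
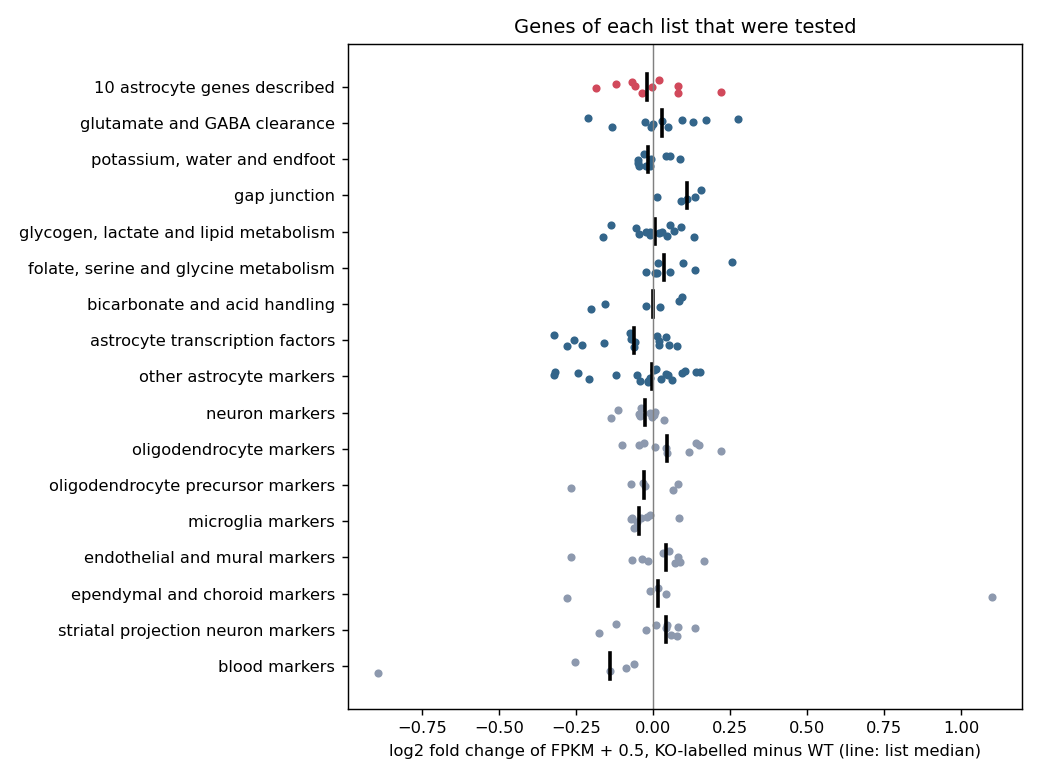
Log2 fold change of FPKM + 0.5, knockout-labelled minus WT, for the tested genes of each list (points) and the list median (line), with the 10 described genes in red, other astrocyte lists in blue and other cell types in grey. Medians of the astrocyte lists lie between -0.06 and 0.11, with genes on both sides of 0 in 7 of these 8 lists.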

How the data were processed

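Bulk RNA of cerebral cortex was sequenced in 6 libraries, 3 per genotype label. Per the labels' protocols, RNA was taken with Trizol and libraries were made with an Illumina TruSeq kit. The file deposited by the authors gives FPKM for 54532 genes, 1 column per library. Bowtie, with no version, and mm10 are named in the submitters' processing notes. For the counting program and its use of strand, nothing is given in the sources used here. Multiplied by gene length, 100% of the values above 0 fell within 0.001 of a whole number of steps, 1 step being 1 read, so reads could be recovered. Gene positions of 98.1% of the table's genes equal those in GENCODE M21.

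The remaining steps were computed here. Since the table held FPKM, limma 3.58.1 in R 4.3.3 compared log2(FPKM + 0.5) across the 15694 genes that averaged 0.5 FPKM or more, with a variance trend, no block, two-sided, at a Benjamini-Hochberg adjusted p of 0.05. Fold changes are on that scale. On simulated data of 15694 genes with 200 changed, the test recovered 81.4% of 2-fold and 96.4% of 4-fold changes. Genes were drawn independently there, with no difference shared by the genes of a library, and no smaller change was simulated. These shares do not extend to the smaller differences of the 10 genes. Values with ± are mean and SD. Counting errors are 100 divided by the square root of the lowest read count and cover counting only. All 10 genes were named, with the 2 genes of smallest p in each astrocyte list and 7 fixed ones. Of the genes so chosen, 2 are not reported here. Gene lists and the 10 genes were chosen with earlier results of these data known. Alternatives were other pseudocounts, filters, scalings, weights, a replicate block, voom on the recovered reads, a threshold of 0.1 and leaving out libraries. The principal transcript lengths, the ratio of Gja1 to Gjb6 and the correlations were added after the data were seen. Plots were drawn with matplotlib 3.10.9.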

Additional observations from a re-analysis of the deposited data

How the results depend on the processing

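Under all 18 refits run, 0 of the 10 genes and 0 of the 93 further astrocyte genes passed an adjusted p of 0.05. In the fit as reported, 0 of the 10 and 0 of all genes passed at 0.1. Over all genes 1 passed with WT replicate 3 and KO replicate 1 left out together and 0 under the other settings. The signs of Slc1a2, Slc1a3, Gja1, Gjb6, Aldh1l1, Slc4a4 and Sox9 held in all 18. Aqp4, at -0.0044 as reported, turned to 0.016 with TPM scaling, 0.012 with upper quartile scaling, 0.048 with sample weights, 0.0083 with voom, 0.053 without the pair of libraries, and ran from -0.058 to 0.051 with 1 library left out. Acsbg1 turned to -0.034 with sample weights, -0.092 without the pair, and ran from -0.046 to 0.081 with 1 library left out. Aldoc ran from -0.15 to 0.018 with 1 left out, turning without WT replicate 1, and was -0.23 without the pair. Groups did not overlap for 3 to 5 genes with 1 library left out, 5 of them without KO replicate 1, and for 6 without the pair. Over all genes the share was 8.87% with every library, 22.5% without KO replicate 1 and 47.3% without the pair. It was not computed for the other libraries left out. The median over the 10 genes ran from -0.05 to 0.01. The causes of these changes were not tested.

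With the replicate number as a block, 0 genes passed and 837 stood at an unadjusted p under 0.05, against 599 without it. Deviations of same-numbered libraries correlated at 0.082, 0.013 and 0.21, and WT replicate 2 correlated best with KO replicate 1, so the numbers were not taken as pairs. Counting error was at most 2.99% for any of the 10 genes, and it exceeded the spread within a group for Gja1 and Sox9 in WT and for Slc4a4 in the knockout-labelled libraries.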

Other observations

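Outside the named rule, some astrocyte genes were picked after their values were seen. Sox2, a transcription factor of neural stem cells and astrocytes and a relative of Sox9, read 24.96, 22.40 and 23.33 FPKM in WT and 21.80, 18.70 and 19.52 FPKM in the knockout-labelled group, with no overlap and a log2 fold change of -0.23 (interval -0.40 to -0.06). Dio2, the astrocyte enzyme that activates thyroid hormone, read 13.17, 12.38 and 13.79 FPKM and 9.06, 11.06 and 11.13 FPKM, also with no overlap, a log2 fold change of -0.32 (interval -0.53 to -0.11). Neither passed limma's adjusted p (0.999 each). Of the 89 tested genes of the astrocyte lists, 15 had groups without overlap (16.9%, against 8.87% of all genes), 8 higher and 7 lower. Cldn10, Aldh5a1 and Cpt1a were among the 8 higher, with log2 fold changes of 0.15, 0.10 and 0.09. Glul, the most abundant of the glutamate clearance genes with 521.4, 511.2 and 453.6 FPKM in WT against 497.5, 431.5 and 427.6 FPKM in the other group, was, like Aldoc and Acsbg1, highest in WT replicate 1, and unlike them lowest in knockout-labelled replicate 3.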
